A study of Mus musculus with 12 samples.

Results

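The probes described here had lower signal in the lungs of smoke-exposed dams than in dams kept in filtered air, and higher signal in the lungs of smoke-exposed offspring than in offspring of the air group. They were chosen from their measured values. Each array was divided by its 75th percentile, values below 1.16% of it were set to that floor, and log2 was taken. A probe was kept when all 3 dam smoke arrays lay below all 3 dam air arrays with a mean log2 difference of -0.3 or lower, and all 3 offspring smoke arrays lay above all 3 offspring air arrays with a mean log2 difference from 0.3 to under 1.5. Of 41174 probes that are not controls, 51 met this rule. The smoke differences of the 51 probes are therefore given as a description and carry no test.

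Total RNA of mouse lung was hybridised to Agilent arrays, 1 array per sample, with 3 arrays described as biological replicates in each of 4 groups. The groups were prenatal offspring of the smoke exposure, prenatal offspring of the air exposure, mature pregnant dams breathing smoke, and mature pregnant dams breathing filtered air. Per the labels all mice were female and of a strain written B6C6F1. Smoke was mainstream smoke of 3R4F cigarettes, a standard reference cigarette with a filter, at 1 part in 50 of filtered air. Exposure ran through the 18 days of gestation, on 5 days a week for 4 h each. Litters are not identified, and p-values therefore reflect only how much these samples varied.

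The dam inhales the smoke, whereas the offspring before birth has fluid-filled lungs and is reached through the placenta by nicotine, carbon monoxide and other constituents carried in maternal blood. Lung tissue before birth is still growing and differentiating, while that of the dam is mature. The tissues compared may therefore differ in cell makeup before any exposure, which was not measured here. In whole lung, fewer cells of a type and less RNA per cell cannot be told apart. The files do not pair these probes with genes, 0 identifiers were found in the RefSeq gene table, and neither gene roles nor lung markers could be examined.

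Several properties of the arrays bear on every value. The labels name Cy5 for lung RNA and Cy3 for a universal mouse reference, while the scan names carry a code for a single colour. No source used here states which channel the deposited values hold. If it were the reference, the differences would not be differences in lung RNA. The 75th percentile was 491 and 549 on offspring smoke replicates 2 and 3 and between 839 and 1164 on the other 10 arrays. The signal of 6 spike-in control probes over the 75th percentile ran from 3.42 to 4.22 in offspring smoke, from 1.60 to 3.23 in offspring air, from 1.52 to 2.76 in dams under smoke and from 1.59 to 1.86 in dam air. Its part in the results was not tested beyond the settings named here. Of the dam smoke arrays, 2 lay on slide 1 and 1 on slide 3, and of the dam air arrays, 2 lay on slide 2 and 1 on slide 3, so slide and smoke overlap in dams. They overlap in offspring too: smoke replicates 2 and 3, the 2 dim arrays, lay on slide 2 with no offspring air array, and air replicates 2 and 3 lay on slide 3 with no offspring smoke array.

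Over the 51 probes the median log2 difference between offspring smoke and offspring air was 0.76, or 1.69-fold higher in smoke, and single probes ran from 0.33 to 1.40 where no offspring air array was at the floor (48 probes). The median difference between dam smoke and dam air was -0.48, which is 1.39-fold higher in dam air, with a range from -2.07 to -0.30. The middle range, from the first to the third quartile, was 0.59 to 1.03 in offspring and -0.59 to -0.35 in dams. For comparison, 28200 probes exceeded the floor on 3 or more arrays and were tested, and their medians were 0.052 in offspring and -0.0079 in dams. Most of the dam differences were small: 38 of the 51 lay between -0.6 and the threshold, and 5 reached -1 or lower. In offspring 14 of the 51 reached 1 or higher.

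Each side of the rule was met by more probes than both together. All dam smoke arrays lay below all dam air arrays at 5.3% of tested probes, and at 2.1% with the required size. All offspring smoke arrays lay above all offspring air arrays at 31% of tested probes, and at 27.1% with the required size. These shares belong to the contrasts that chose the 51 probes and are given as background only. Without the upper limit of 1.5 in offspring, 54 probes combined lower dam with higher offspring signal. The opposite combination, higher in smoke-exposed dams and lower in smoke-exposed offspring by at least 0.3 without overlap, was seen at 38 probes. Dams and offspring were both higher in smoke by these criteria at 309 probes and both lower at 204. Opposed differences were thus less common than shared ones in these 12 arrays, a description that was not tested.

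The thresholds cut through a continuous range. At the dam threshold the nearest probe inside had a difference of -0.3036 and the nearest outside -0.2992. At the lower offspring threshold the nearest values were 0.33 inside and 0.23 outside, and at the upper one 1.49 inside and 1.62 outside. The value of 1.49 was a lower bound, with 2 of the 3 offspring air arrays at the floor; without the floor that probe also differed by 1.62 and did not meet the rule. The probe outside the upper limit had a dam difference of -2.18, larger in size than any of the 51. In all, 3 probes were left out by the upper limit alone.

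The 51 probes were mostly dim. Their mean level over the 12 arrays had a median of 5.43% of the 75th percentile, against 42.5% for all tested probes, and 40 of the 51 lay below that median of all tested probes. The brightest averaged 2411% of the 75th percentile and the dimmest 1.59%. All 51 passed the filter for testing, 46 of them above the floor on all 12 arrays, 3 on 11 and 2 on 9. Values at the floor occurred in offspring air at 3 probes and in dam smoke at 3 probes, 5 different probes in all, and the rule allows none in the groups with the higher signal. The differences of those probes that rest on an array at the floor are lower bounds in size. At 1 of them all 3 dam smoke arrays were at the floor. The spread between replicates was also somewhat wider than usual, with a median pooled SD of 0.23 on the log2 scale against 0.19 over all tested probes. By identifier, 30 of the 51 carried the prefix A_51 (58.8%), against 49.6% of tested probes.

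In percent of the 75th percentile, the median level of the 51 probes was 7.26% for offspring smoke, against 4.73% for offspring air. For dam smoke it was 4.09%, against 5.78% for dam air. The groups at the high end, offspring smoke and dam air, differed by a median log2 value of 0.29, offspring smoke minus dam air, against 0.055 over all tested probes. The groups at the low end, offspring air and dam smoke, differed by a median of 0.033, offspring air minus dam smoke, against 0.019. None of the 51 probes (0) had a gap of more than 2 on the log2 scale between arrays that were neighbours in rank. Such a gap was seen at 94 of the tested probes (0.33%), a share so low that its absence among 51 carries no information.

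The order of the group means was partly set by the rule, under which only offspring smoke or dam air can be highest and only dam smoke or offspring air lowest. Offspring smoke had the highest of the 4 means at 37 probes (72.5%) and dam air at the remaining 14; over all tested probes the offspring smoke mean lay above the dam air mean at 53.6%. Dam smoke had the lowest mean at 28 probes and offspring air at the remaining 23. The most frequent order, at 25 probes, ran from dam smoke through offspring air and dam air to offspring smoke. At 12 probes the order was the same except that offspring air lay below dam smoke. At 8 probes the order ran from offspring air through dam smoke and offspring smoke to dam air. Another 3 probes had dam air highest and dam smoke lowest, and the last 3 had both offspring means below both dam means. Offspring air had a lower mean than dam air at all 51 probes, against 46.6% of tested probes, and offspring smoke a higher mean than dam smoke at 48 of 51, against 54.0%. All of these counts reuse the groups that the rule drew on, and nothing is read from them.

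Within groups some arrays lay at one end more often than others. Offspring smoke replicate 1 was the lowest of its group at 29 of the 51 probes (56.9%), against 34.8% of tested probes, and replicate 2 was the highest at 26 (51.0%), against 43.8%. In offspring air, replicate 3 was the lowest at 25 probes (49.0%), against 27.0% of tested probes. In dam smoke, replicate 1 was the lowest at 28 probes (54.9%), against 31.7%, and replicates 2 and 3 were each the highest at 21 (41.2%), against 22.5% of tested probes for replicate 2 and 40.6% for replicate 3. Dam air replicate 2 was the lowest of its group at 26 probes (51.0%), against 43.5% of tested probes. Offspring smoke replicate 1, with a 75th percentile of 917, thus lay nearest to the air group more often than the dimmer replicates 2 and 3. Without those dimmer replicates the median offspring difference of the 51 probes was 0.68, against 0.76 with all arrays. Offspring air replicate 2 and dam smoke replicate 3 had the highest spike-in ratios of their groups. Without them the median difference was 0.78 in offspring and -0.55 in dams, against -0.48 in dams with all arrays. Both exclusions were added after the data had been seen.

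Probe A_51_P137604 had a pooled SD within groups of 0.13 on the log2 scale. It measured 24.6%, 27.4% and 23.7% of the 75th percentile on the offspring smoke arrays, against 13.9%, 11.6% and 11.5% in offspring air. In dam smoke it measured 8.61%, 10.7% and 9.73%, against 17.7%, 15.5% and 16.9% in dam air. The 4 groups did not overlap: offspring smoke was highest, then dam air, then offspring air, then dam smoke. The means were 25.2 ± 1.91% in offspring smoke, 12.3 ± 1.37% in offspring air, 9.69 ± 1.06% in dam smoke and then 16.7 ± 1.07% in dam air (SD, n = 3 each). The log2 difference was 1.03 in offspring and -0.79 in dams, and the difference of these effects, 1.82, ranked 8 among the 51.

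Probe A_51_P196663 was brighter, close to the 75th percentile itself. It measured 120.1%, 126% and 126% in offspring smoke, against 62.7%, 70.8% and 56.5% in offspring air. In dam smoke it measured 62.9%, 68.9% and 68.5%, against 104%, 93.2% and 107% in dam air. Offspring air and dam smoke overlapped at the low level, and offspring smoke lay above dam air. Its log2 difference was 0.97 in offspring and -0.60 in dams, and the difference of effects, 1.57, ranked 14.

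The 3 probes with the largest difference of effects, at 3.33, 2.93 and 2.32, shared a profile over the arrays and a wide spread within groups. Their pooled SDs ranked 1, 2 and 5 among the 51. The first measured 73.8%, 92.7% and 80.5% in offspring smoke, against 72.7%, 24.3% and 22.8% in offspring air. In dam smoke it measured 16.0%, 39.7% and 18.9%, against 102%, 65.6% and 133% in dam air. Offspring air replicate 1 thus lay just under the smoke arrays, and dam smoke replicate 2 stood above the other dam smoke arrays.

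The second of these probes measured 557%, 585% and 541% in offspring smoke, against 513%, 178% and 175% in offspring air. It measured 101%, 297% and 132% in dam smoke, against 555%, 416% and 685% in dam air. The third measured 80.8%, 95.9% and 80.3% in offspring smoke, against 71.8%, 31.4% and 32.1% in offspring air. Its dam smoke arrays read 37.8%, 57.7% and 43.5%, against 119%, 76.9% and 151% in dam air. In all 3 probes the same arrays were high in offspring air and in dam smoke, and dam air replicate 2 was the lowest of its group. These probes were singled out after their values had been seen, and whether they measure the same transcript cannot be told from the files.

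A contrast that the rule did not use directly was offspring against dams, averaged over smoke and air. With 3 arrays per group, and if the spread is equal in all groups, its estimate is uncorrelated with both smoke differences. Each slide held 2 offspring and 2 dam arrays. Its direction is still not free of the choice: where offspring air and both dam groups are alike, this average takes up part of the higher signal in offspring smoke. The demand for no overlap also draws on the spread within groups, which enters the p-values. Calls among the chosen probes are therefore not independent of the choice either. The test was limma, fitted to all 28200 tested probes with 1 mean per group, with calls made where the Benjamini-Hochberg adjusted p was under 0.05.

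In that contrast 19 of the 51 probes were called (37.3%), close to the 33.3% called among all tested probes. Of the 51, averaged over smoke and air, 16 were called higher in offspring (31.4%, against 17.5% of tested probes). By the same average, 3 were called lower (5.88%, against 15.9%). The median log2 difference between offspring and dams was 0.18 over the 51 probes, with quartiles of -0.047 and 0.36, and 0.038 over all tested probes. Single probes ran from -1.73 to 0.75. This average joined unlike differences. The median of offspring minus dams over the 51 probes was 0.81 in smoke and -0.44 in air. Over all tested probes the medians were 0.059 in smoke and 0.017 in air. In air the highest difference among the 51 was -0.027, so no probe called higher in offspring was higher there in air. The rule drew on these groups, and the split was not tested. Called or not, 36 of the 51 were higher in offspring (70.6%, against 54.7%). With 1 array left out the 16 became 10 to 15. It was 10 (19.6%) without offspring air replicate 2, against 13.4% of tested probes, without dam smoke replicate 1, against 12.4%, and without dam air replicate 1, against 11.8%. The count of calls in either direction was 1 of the 51 when the spike-in ratio was a covariate, where 61 of all tested probes were called. It was 7 of the 51 (13.7%) without offspring smoke replicates 2 and 3, an alternative added after the data had been seen, against 12.6% of tested probes. It was 12 of the 51 (23.5%) when dimmer probes were kept in the fit, against 19.2% of the 41174 fitted. In these fits the share called fell over all probes as well as over the 51. The share higher in offspring among all calls was 52.4%. It was 2.03% on unscaled values and 0.174% on spike-in scaled values; among the 51 these settings gave 0 higher with 3 lower (5.88% called, against 19.1% of tested probes) and 0 higher with 20 lower (39.2%, against 59.1%). The median of the 51 stood 0.12 above that of all tested probes on unscaled values and 0.11 above it on spike-in scaled ones, against 0.14 with the 75th percentile. A change of the divisor of an array moves all its probes alike except at the floor. The closeness of these gaps was thus fixed in advance and is no support.

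Probe A_51_P428708 was the most strongly lower in offspring. It measured 115%, 134% and 121% of the 75th percentile on the offspring smoke arrays, and its offspring air arrays read 39.0%, 87.3% and 29.4%. In dams it measured 238%, 248% and 194% under smoke and 275%, 287% and 272% under air. Every offspring array lay below every dam array, although the smoke arrays were above the air arrays in offspring and below them in dams. Averaged over exposures, offspring were 3.32-fold lower (log2 difference -1.73, SE 0.21, adjusted p 9.12e-04 in limma). It was called in all 27 alternative settings, with adjusted p between 1.02e-06 and 0.0244.

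Probe A_51_P176893 was also lower in offspring, at 5.84%, 4.15% and 5.32% in offspring smoke, with 4.11%, 2.90% and 3.91% in offspring air. In dams it measured 5.30%, 6.81% and 7.53% under smoke and 8.37%, 7.91% and 7.80% under air. Offspring smoke and dam smoke overlapped, while offspring air and dam air did not. The log2 difference was -0.76 (SE 0.12, adjusted p 0.00207 in limma). The call was lost with the spike-in covariate (adjusted p 0.124), where the log2 difference was -0.69, and kept in the other 26 settings, where the lowest was 1.15e-04.

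Among probes called higher in offspring when averaged over smoke and air, A_51_P137604 differed by 0.47 on the log2 scale (SE 0.083, adjusted p 0.00271 in limma). Its adjusted p over 27 alternatives ran from 0.00183 to 0.636. The offspring air arrays of this probe lay below its dam air arrays and above its dam smoke arrays. In air it was thus not higher in offspring, with means of 12.3% in offspring and 16.7% in dams. Probe A_51_P374571, the brightest of the 51, measured 3495%, 4378% and 3842% in offspring smoke, with 2400.3%, 2316% and 1873% in offspring air. In dams it measured 1471%, 1998% and 1946% under smoke and 2328%, 2249% and 2102% under air. Its offspring air and dam air arrays overlapped, with means of 2196% in offspring air and 2227% in dam air. Its log2 difference between offspring and dams was 0.55 (SE 0.10, adjusted p 0.00358 in limma), and the adjusted p over 27 alternatives ran from 0.00142 to 0.553. Both calls were lost on unscaled values, with log2 differences of 0.17 for A_51_P137604 and 0.24 for A_51_P374571, and under the spike-in covariate, with 0.41 and 0.32 in the same order. On spike-in scaled values both differences were below 0, at -0.21 and -0.13. Probe A_51_P196663 was not called, with a log2 difference of 0.11 and a limma adjusted p of 0.283. Of 27 alternatives it was called in 1, as lower in offspring on spike-in scaled values (log2 difference -0.58, adjusted p 0.0256 in limma).

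How far the 51 probes can be called higher in smoke-exposed offspring depended on the scaling. Without scaling their median offspring difference was 0.16, and 38 of the 51 stayed above 0. With scaling to the spike-ins it was 0.047, and 29 of the 51 stayed above 0. Those settings moved the median of all tested probes in offspring to -0.49 and -0.59. Relative to it the 51 probes stood 0.65 and 0.64 higher, against 0.70 with the 75th percentile. Both settings change only 1 divisor per array, which shifts every probe alike except at the floor. These gaps were therefore bound to stay close, and nothing on scaling is read from them. In dams all 51 differences stayed below 0 under each scaling tried, with medians from -0.66 with spike-in scaling to -0.40 without scaling. The rule itself, applied to unscaled values, kept 3 probes, 2 of them among the 51, and applied to spike-in scaled values it kept 9, again 2 of them among the 51. With median centring it kept 50 probes, 34 of them shared, and with quantile normalization 46, of which 36 were shared.

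Slide was tested by adding it to the 4 group means. Limma called 0 of the 51 probes and 0% of all tested probes at an adjusted p under 0.05. An unadjusted p under 0.05 was seen at 6 of the 51 (11.8%), against 7.26% of tested probes. Slide 1 was the only slide with both offspring groups, and between its 1 smoke and 1 air array the median difference of the 51 probes was 0.54, against 0.0083 over all tested probes. Slide 3 was the only slide with both dam groups, and there the median was -0.46, against 0 over all tested probes. The sign of these within-slide values is fixed by the rule, and no slide held all 4 groups. For offspring against dams the median over the 51 probes was 0.39 on slide 1 (0.0061 over all tested probes), where both dam arrays came from smoke, and 0.29 on slide 2 (0.070), where the offspring arrays came from smoke and the dam arrays from air. It was -0.29 on slide 3 (0.017), where both offspring arrays came from air and the dam arrays from 1 smoke and 1 air sample.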

How the data were processed

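Lung total RNA was measured on 12 Agilent arrays. The deposited table gave 1 linear intensity per probe and array, for 41267 rows of which 93 were controls, with 0 missing. Per the labels' protocols RNA was amplified and labelled with Agilent's low RNA input kit; no source used here gives the background subtraction. Groups and replicates came from titles and slides from scan names. Scaling, floor and log2 followed the rule stated above, and probes above the floor (-6.43 on the log2 scale) on at least 3 arrays were tested.

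Tests used limma 3.58.1 in R 4.3.3 (lmFit, eBayes, 8 residual degrees of freedom, two-sided, Benjamini-Hochberg over 28200 probes). Other steps used Python 3.11.15, numpy 2.4.6 and pandas 2.3.3. On simulated data for offspring against dams, 200 of 28200 probes were changed. Limma recovered 83% of them at a change of 1 on the log2 scale and 97% at a change of 2, and made 9 false calls. The measured arrays gave 9403 calls in this contrast, and 61 once the spike-in ratio was a covariate. The simulation was thus far from the measured case, and how many of the measured calls are false cannot be read from it.

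The probes, lists and rules were chosen with earlier results of these data known. Cell type and smoke response gene lists written with the design could not be used, since 0 probes matched a gene. Probes named are the 2 given with the rule and, for offspring against dams, the 2 with the smallest p in each direction among called probes above the floor on all arrays. All arrays were counted: even the most alike, replicates 1 and 3 of dam air (r = 0.997), had 0 scaled values in common. The number of arrays limits the precision.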

Additional observations from a re-analysis of the deposited data

Results flagged for a closer look

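The difference between smoke and air arrays was not the same in the stages at the 51 probes. The median difference of effects, offspring minus dams, was 1.30 on the log2 scale. Every probe was lower in smoke in all dam arrays and higher in smoke in all offspring arrays. The rule chose the probes for this, and the difference was not tested. Slide and smoke overlap in both stages, and on spike-in scaled values the median offspring difference was 0.047.

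In control probes outside the comparisons, the spike-in signal relative to the 75th percentile separated the offspring groups without overlap. The log2 difference, offspring smoke minus offspring air, was 0.71. Offspring smoke averaged 3.74 ± 0.423, against 2.38 ± 0.819 for offspring air (SD, n = 3 each).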

How the results depend on the processing

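The number of probes that met the rule was 51. It was 3 without scaling, 9 with spike-in scaling, 332 without the floor (50 of the 51 among them), 22 with at least 0.5 in place of 0.3, and 309 when arrays could overlap. With 1 array left out it ran from 51 to 168, and between 40 and 51 of the 51 remained; it was 168 without dam air replicate 2, 125 without dam smoke replicate 3, 108 without offspring smoke replicate 1, 97 without dam air replicate 3, 91 without dam smoke replicate 2 and 85 without offspring air replicate 2. It was 183 without dam smoke replicate 3 and offspring air replicate 2 together, added after seeing the data. Removing an array makes the demand for no overlap easier to meet; other causes were not tested.

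The median dam difference of the 51 probes, -0.48, was -0.66 with spike-in scaling and ran from -0.55 to -0.42 with 1 array left out. The median offspring difference, 0.76, was 0.16 on unscaled values and 0.047 on spike-in scaled ones, and ran from 0.71 to 0.83 with 1 array left out.

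For offspring against dams, 9403 probes were called. The count was 5374 without scaling, 16673 with spike-in scaling, 14881 with array weights, whose fit did not fully converge, 61 with the spike-in covariate and 3564 without offspring smoke replicates 2 and 3, and it ran from 6420 to 10908 with 1 array left out. Of the 51, 19 were called, against 3 without scaling, 12 without the filter, 1 with the spike-in covariate and 7 without offspring smoke replicates 2 and 3, and from 13 to 19 with 1 array left out. Their median, 0.18, became -0.13 on unscaled values and -0.50 on spike-in scaled ones, where the medians of all tested probes were -0.24 and -0.61, and -0.29 within slide 3, and ran from 0.11 to 0.19 with 1 array left out. Among named probes the direction reversed for A_51_P137604 (-0.21) and A_51_P374571 (-0.13) with spike-in scaling, and for A_51_P196663 on unscaled values (-0.20), on spike-in scaled values (-0.58) and under the spike-in covariate (-0.051). Slide had 0 calls in limma also with quantile normalization, with 2047 unadjusted p under 0.05 against 2039.

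Arrays with the same replicate number shared little: over 18 such pairs the correlation of deviations from group means ran from -0.334 to 0.217 and exceeded 0.1 in 2. Whether dams and offspring were paired cannot be told from this, since litters are not identified. With the replicate number as a block 7981 probes were called, 17 of them among the 51. Signal near background limits the dim probes among the 51. The causes of these changes were not tested.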
